A study of Mus musculus with 55 samples.

Results

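The collagen chains of the infarcted mouse heart were the 44 genes whose symbol has the form Col, number, a, number, out of 56867 genes counted on both days of the study. They comprised 11 fibrillar chains, 9 FACIT chains (fibril-associated collagens with interrupted triple helices), 3 network-forming chains, 8 basement membrane chains and 13 others. RNA had been sequenced from the infarct of the left ventricle of C57BL/6J mice after infarction, in 55 libraries; the study's design text names permanent coronary ligation, for day 7. Day 7 had 8 type 1 diabetic, 8 type 2 diabetic and 8 non-diabetic libraries, and day 28 had 10 type 1 diabetic, 10 type 2 diabetic and 11 non-diabetic libraries. All groups, the non-diabetic ones included, carried an infarct, and no uninjured heart was analysed here. Library names of the type 1 groups carry hi STZ and those of the type 2 groups lo STZ HFFD, and the labels do not spell these names out. Age and sex are not given in the labels. Day and sequencing project coincide and cannot be told apart, so the groups were compared within each day.

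A collagen molecule is a triple helix of 3 chains, made from 1, 2 or 3 different genes. Fibrillar collagens I and III form the tensile fibres of scar tissue, and collagens V and XI sit inside those fibres and set their width. FACIT collagens decorate the fibre surface, collagen VIII forms hexagonal sheets around vessels, and collagen IV builds the basement membrane under endothelium and around cardiomyocytes. In a healing infarct, fibroblasts that have become myofibroblasts make most of the fibrillar collagen and replace lost muscle with scar.

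Levels are CPM, counts scaled to 1000000 gene counts per library. Totals at day 7 were 31322847 to 51158036 counts in type 1, 30812809 to 48187379 in type 2 and 10756242 to 46812053 in non-diabetic libraries. At day 28 they were 57440760 to 89553708 in type 1, 48105347 to 92869315 in type 2 and 57979612 to 84380994 in non-diabetic libraries. The markers of infarct tissue were present: the 20 cardiomyocyte markers summed to between 3043 and 40870 CPM at day 7, and the 13 fibroblast markers to between 2403 and 5325 CPM. Some libraries stood apart. Replicate 4 of the day 7 type 1 group had the lowest cardiomyocyte sum and held 97.99 CPM of Adipoq, an adipocyte hormone, against at most 6.165 CPM in any other day 7 library. Replicate 4 of the day 28 type 2 group had the highest B cell marker sum of its day, 7370 CPM. The labels do not say that replicates are separate animals, so p-values measure the spread between libraries, which may be in part technical.

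Collagen chains took up less of the RNA of diabetic than of non-diabetic infarcts at day 7, and their share was far lower in every group at day 28. At day 7 they held 4.63 ± 0.841% of counts in type 1 tissue, 4.93 ± 0.743% in type 2 tissue and 6.20 ± 0.694% in non-diabetic tissue (SD, n = 8 each). At day 28 the shares were 1.39 ± 0.332% in type 1 (n = 10), 1.37 ± 0.396% in type 2 (n = 10) and 1.14 ± 0.191% in non-diabetic tissue (n = 11). In bulk tissue, fewer cells of a type and less RNA per cell cannot be told apart.

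**Figure D1:**
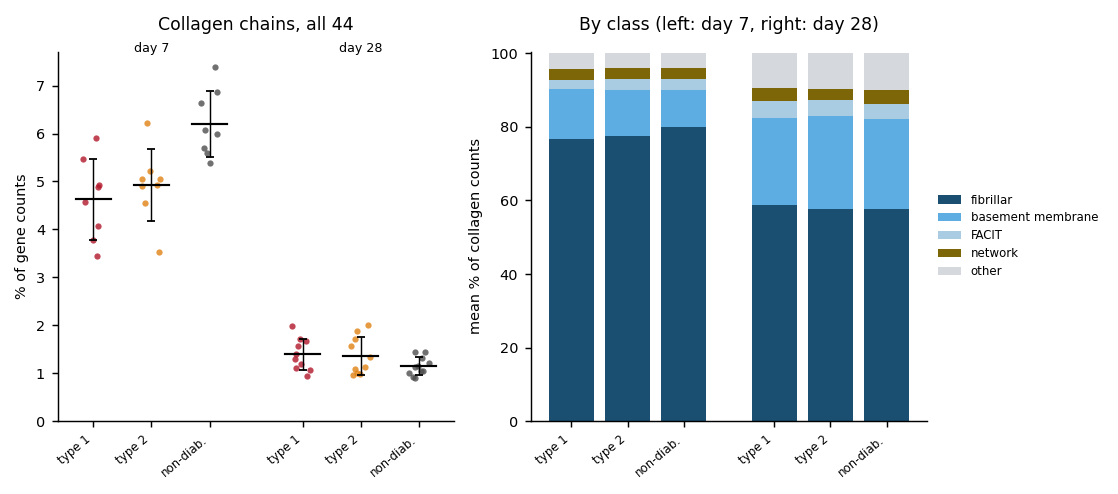
Left, the percentage of gene counts held by the 44 collagen chains in each library, by day and group (points), with the mean and SD. Right, the mean percentage of collagen counts held by each class. At day 7 the means are 4.63% in type 1, 4.93% in type 2 and 6.20% in non-diabetic tissue, and at day 28 all 3 lie below 1.4%.

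Scaled by transcript length, Col3a1, the single chain of collagen III, was the most abundant collagen in every group. At day 7 it averaged 2395 ± 465.3 CPM per kilobase in type 1, 2377 ± 375.7 in type 2 and 3095 ± 354.9 in non-diabetic tissue. Col1a2 and Col1a1, the 2 chains of collagen I, came next on this scale at 1509 ± 485.4 and 1391 ± 377.9 CPM per kilobase in type 1, 1848 ± 321.7 and 1665 ± 317.3 in type 2, and 2502 ± 367.4 and 2327 ± 402.5 in non-diabetic tissue. Col1a2 and Col1a1 did not differ beyond their spread in any group at day 7. Col5a2, Col4a1, Col4a2, Col8a1 and Col5a1 followed, in an order that varied between groups, each at 518.9 CPM per kilobase or less. At day 28 the basement membrane chain Col4a1 ranked next after Col3a1 and Col1a2, at 225.3 ± 51.83 CPM per kilobase in type 1, 233.8 ± 37.38 in type 2 and 194.2 ± 20.87 in non-diabetic tissue, above Col1a1 in each group.

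By class, the fibrillar chains held 76.6 ± 4.23% of the collagen counts in type 1, 77.5 ± 2.28% in type 2 and 79.9 ± 1.85% in non-diabetic tissue at day 7. Basement membrane chains held 13.6 ± 2.89% in type 1, 12.5 ± 2.20% in type 2 and 10.2 ± 1.21% in non-diabetic tissue. FACIT chains held 2.60 ± 0.48% in type 1, 2.92 ± 0.27% in type 2 and 2.86 ± 0.38% in non-diabetic tissue. Not every member was measurable: 43 of the 44 chains passed the low-count filter on each day, and Col19a1, a FACIT chain, did not, with at most 0.27 CPM in any library.

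At day 7, most collagen chains were lower in type 1 diabetic than in non-diabetic infarcts. Of the 43 tested, 27 fell and 2 rose at an adjusted p of at most 0.05, whereas 11.4% of all tested genes fell and 11.1% rose. The median log2 change over the 43 chains was −0.58, beside −0.01 over all genes. By class, all 8 tested FACIT chains fell, as did 8 of 11 fibrillar, 3 of 3 network, 3 of 8 basement membrane and 5 of 13 other chains. Fewer chains passed in type 2 tissue, all of them lower. In that comparison 14 fell and none rose, beside 3.5% of all genes that fell and 3.85% that rose, and the median over the chains was −0.38, beside −0.03 over all genes. Those 14 were 5 fibrillar, 3 FACIT, 1 network and 5 other chains, with none of the 8 basement membrane chains. Both comparisons share the same 8 non-diabetic libraries. Unless another test is named, p-values come from the quasi-likelihood test of edgeR, adjusted over all genes by the Benjamini-Hochberg method, and changes given after "by" or with a standard error (SE) are on the log2 scale. The type 1 count was 28 without replicate 4 of that group. The type 2 count was 6 without replicate 1, 6 without replicate 3 and 7 without replicate 5 of that group. Library names start with a number that some libraries of a group share, and the labels do not say whether it marks an animal or a cage. With such libraries added together, which left 6 type 1, 4 type 2 and 6 non-diabetic units at day 7, 15 chains passed in type 1 (14 lower, 1 higher) and none in type 2. Of all genes, 1459 passed in type 1 and 176 in type 2 in that fit. Over the separate libraries, 24 chains had an unadjusted p under 0.05 in type 2, but the share of all genes under that value was not taken.

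**Figure D2:**
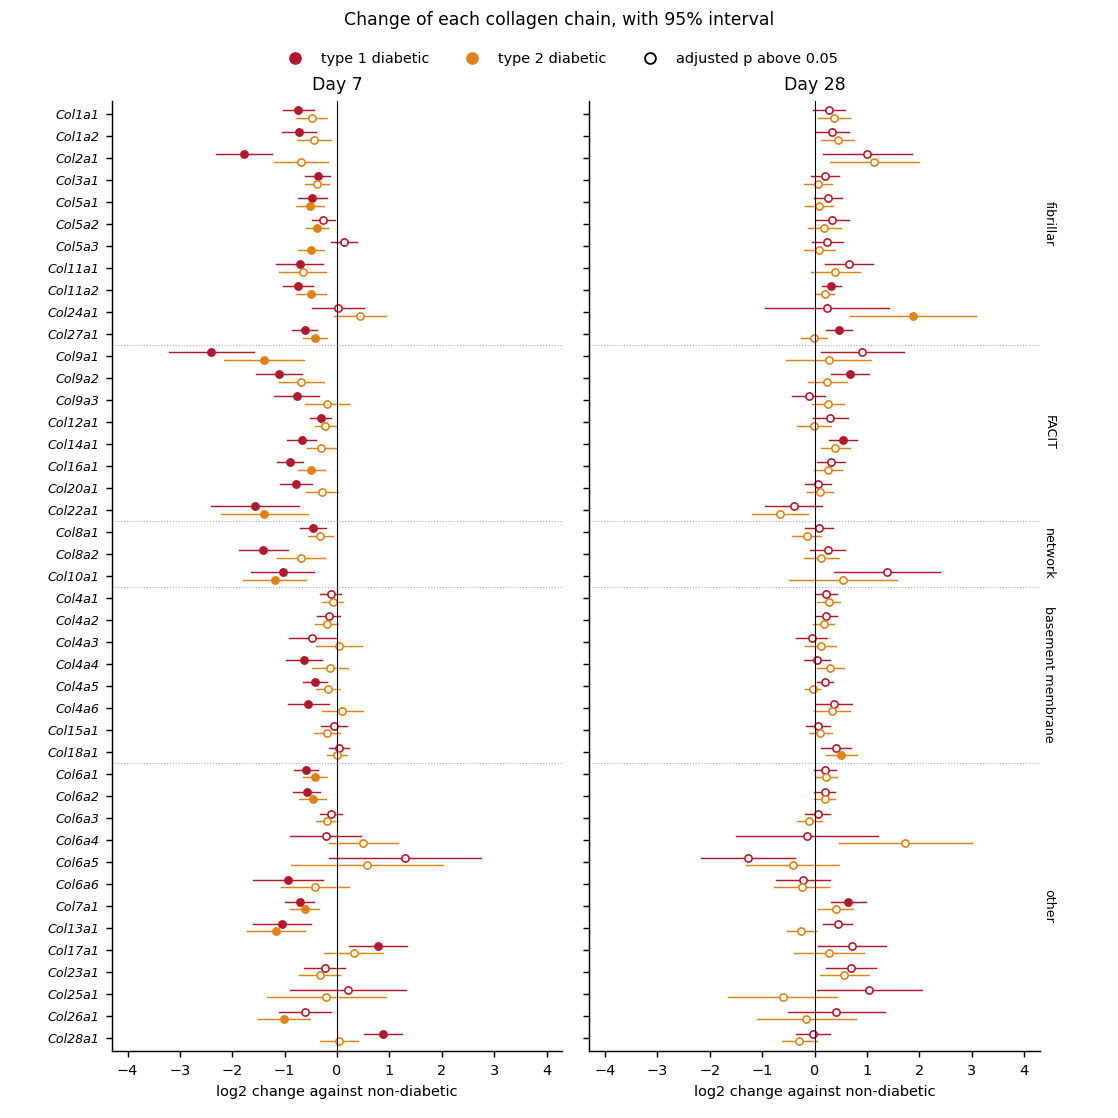
Log2 change of each tested collagen chain against non-diabetic tissue, by class, at day 7 (left) and day 28 (right), for type 1 (red) and type 2 (orange), with 95% intervals. Filled points have an adjusted p of at most 0.05. At day 7, 27 type 1 and 14 type 2 points are filled on the left of 0 and 2 type 1 points on the right, and at day 28 the few filled points, 5 for type 1 and 2 for type 2, are on the right.

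Among the fibrillar chains at day 7, collagen I fell in type 1 tissue. Col1a1 had between 5363 and 11840 CPM with a median of 7800 in type 1, between 6845 and 13160 with a median of 9689 in type 2, and between 10370 and 16550 with a median of 14020 in non-diabetic libraries. All 8 type 1 and all 8 type 2 libraries lay below the non-diabetic mean, and the ranges overlapped. Its log2 change was −0.74 (SE 0.152, adjusted p = 0.00151) in type 1 and −0.48 (SE 0.151, adjusted p = 0.0508) in type 2, which did not pass. Its partner Col1a2 had between 3736 and 11930 CPM with a median of 8444 in type 1, between 6626 and 12690 with a median of 9974 in type 2, and between 10790 and 16050 with a median of 13120 in non-diabetic libraries. The log2 change of Col1a2 was −0.73 (SE 0.169, adjusted p = 0.00358) in type 1 and −0.44 (SE 0.168, adjusted p = 0.112) in type 2. In type 2 tissue both passed when only the compared groups were fitted, Col1a1 with an adjusted p of 0.0379 and Col1a2 with one of 0.0417. Col1a1 also passed there in DESeq2 (adjusted p = 0.0191) and in edgeR with the replicate number as a block (adjusted p = 0.0376).

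Collagen III was lowered less than collagen I in type 1 tissue. Col3a1 had between 9500 and 18020 CPM with a median of 13260 in type 1, between 8656 and 15600 with a median of 13570 in type 2, and between 14050 and 20380 with a median of 17420 in non-diabetic libraries. The log2 change was −0.37 (SE 0.12, adjusted p = 0.0277) in type 1, and that call was lost on leaving out any of 5 of the 16 libraries, with an adjusted p of up to 0.0594. In type 2 it was −0.38 (SE 0.12, adjusted p = 0.0519), which did not pass. DESeq2 called Col3a1 in type 2 (−0.38, adjusted p = 0.0193).

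The promoters of 5 members are shown because their chains carry the day 7 result: Col1a2 (ENSMUSG00000029661) and Col3a1 (ENSMUSG00000026043) as abundant fibrillar chains, Col16a1 (ENSMUSG00000040690) as the FACIT chain with the smallest adjusted p in type 1 tissue, and Col5a3 (ENSMUSG00000004098) and Col28a1 (ENSMUSG00000068794) as the chains higher in type 1 than in type 2. Each is the 250 bases before the annotated start, read 5′ to 3′ on the gene's strand, from RefSeq (GRCm38.p6), which held a promoter for 35 of the 44 collagen genes. They lie at chr6:4505368-4505617 (+) for Col1a2, chr1:45311288-45311537 (+) for Col3a1, chr4:130047590-130047839 (+) for Col16a1, chr9:20815068-20815317 (−) for Col5a3 and chr6:8192618-8192867 (−) for Col28a1. Capitals mark the CCAAT box (CCAAT), the GC box (GGGCGG) and the TATA box (TATAAA), each searched on both strands; none of the matches overlap.
Col1a2: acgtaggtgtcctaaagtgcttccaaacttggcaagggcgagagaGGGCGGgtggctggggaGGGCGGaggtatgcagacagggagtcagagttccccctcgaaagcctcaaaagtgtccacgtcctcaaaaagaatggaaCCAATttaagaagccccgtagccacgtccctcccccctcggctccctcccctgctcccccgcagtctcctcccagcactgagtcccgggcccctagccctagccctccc
Col3a1: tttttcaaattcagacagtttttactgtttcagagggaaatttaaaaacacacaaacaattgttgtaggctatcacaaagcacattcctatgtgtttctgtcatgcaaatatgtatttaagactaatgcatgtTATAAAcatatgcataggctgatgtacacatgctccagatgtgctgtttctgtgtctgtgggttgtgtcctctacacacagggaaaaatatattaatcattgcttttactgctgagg
Col16a1: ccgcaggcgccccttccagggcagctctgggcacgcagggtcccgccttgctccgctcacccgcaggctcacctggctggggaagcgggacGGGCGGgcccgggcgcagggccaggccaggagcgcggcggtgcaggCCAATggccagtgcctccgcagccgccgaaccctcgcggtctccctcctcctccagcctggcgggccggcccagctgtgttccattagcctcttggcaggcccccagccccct
Col5a3: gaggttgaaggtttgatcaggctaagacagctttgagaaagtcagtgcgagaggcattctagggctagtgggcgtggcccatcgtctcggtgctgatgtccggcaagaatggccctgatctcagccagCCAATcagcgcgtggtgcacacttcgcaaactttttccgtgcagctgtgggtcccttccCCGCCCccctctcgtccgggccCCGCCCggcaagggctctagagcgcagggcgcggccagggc
Col28a1: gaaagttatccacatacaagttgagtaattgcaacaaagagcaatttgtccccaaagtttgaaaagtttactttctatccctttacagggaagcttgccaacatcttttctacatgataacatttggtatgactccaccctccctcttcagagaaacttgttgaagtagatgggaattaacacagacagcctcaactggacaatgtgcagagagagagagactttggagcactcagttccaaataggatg
The window of Col1a2 held 1 CCAAT and 2 GC boxes, that of Col16a1 held 1 of each, and that of Col5a3 held 1 CCAAT box and 2 GC boxes on the other strand (written CCGCCC). The Col3a1 window held 1 TATA box and neither of the others, and the Col28a1 window held none of the 3. Over all 32851 promoter windows of this length, 33.8% held a CCAAT box, 32.7% a GC box and 12.4% a TATA box. A match describes the letters of the window and not a bound site.

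Collagen V is the nucleator of collagen I fibres, and its 3 chains did not move alike at day 7. Col5a1 had between 1350 and 2439 CPM with a median of 1864 in type 1, between 1298 and 2384 with a median of 1868 in type 2, and between 2032 and 4045 with a median of 2556 in non-diabetic libraries. It fell in type 1 (log2 change −0.48, SE 0.14, adjusted p = 0.0164) and in type 2 (−0.52, SE 0.14, adjusted p = 0.0256). Col5a2 fell in type 2 (−0.38, SE 0.111, adjusted p = 0.0354), with a log2 change of −0.27 in type 1 that did not pass (SE 0.111, adjusted p = 0.0863). Col5a3, the least abundant of the 3, had between 130.3 and 232.7 CPM with a median of 173.9 in type 1, between 90.2 and 122.9 with a median of 116.8 in type 2, and between 126.4 and 237.6 with a median of 146.8 in non-diabetic libraries. The type 1 and non-diabetic ranges of Col5a3 were nearly the same, while every type 2 library lay below every library of the other groups. It fell in type 2 (−0.49, SE 0.13, adjusted p = 0.0213) and had a log2 change of 0.13 in type 1 (SE 0.129, adjusted p = 0.504). In the type 2 comparison, 0.413% of all genes had groups apart in that direction. In type 2, Col5a1 lost its call without non-diabetic replicate 5 or type 2 replicate 1 (adjusted p up to 0.0606), and Col5a3 lost it without non-diabetic replicate 4 (0.0526). Col5a2 lost its type 2 call in 9 of 16 omissions (up to 0.078) and when only the compared groups were fitted (0.061).

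The other fibrillar chains include those best known from cartilage. Col2a1, the main collagen of cartilage, had between 5.552 and 21.58 CPM with a median of 11 in type 1, between 16.51 and 36.23 with a median of 24.79 in type 2, and between 19.2 and 68.94 with a median of 42.48 in non-diabetic libraries. It had the largest fall of any fibrillar chain in type 1, at −1.78 (SE 0.273, adjusted p = 0.000176, 8 of 8 libraries). Col11a1, a chain of the collagen XI that templates cartilage fibres, had a median of 230.9 CPM in type 1, 238.6 in type 2 and 414 in non-diabetic libraries. It fell in type 1 (−0.72, SE 0.227, adjusted p = 0.0249), with −0.66 in type 2 (SE 0.227, adjusted p = 0.0778). DESeq2 called Col11a1 in type 2 (−0.65, adjusted p = 0.0355). Col11a2 fell in type 1 (−0.74, SE 0.149) and type 2 (−0.50, SE 0.149), and so did Col27a1, at −0.62 (SE 0.12) and −0.42 (SE 0.119). In type 2, 11 of the 16 omissions ended the call of Col11a2 (adjusted p up to 0.0944) and 8 that of Col27a1 (up to 0.0749). Col24a1 stood at 0.02 in type 1 and 0.44 in type 2 and passed in neither.

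**Figure D3:**
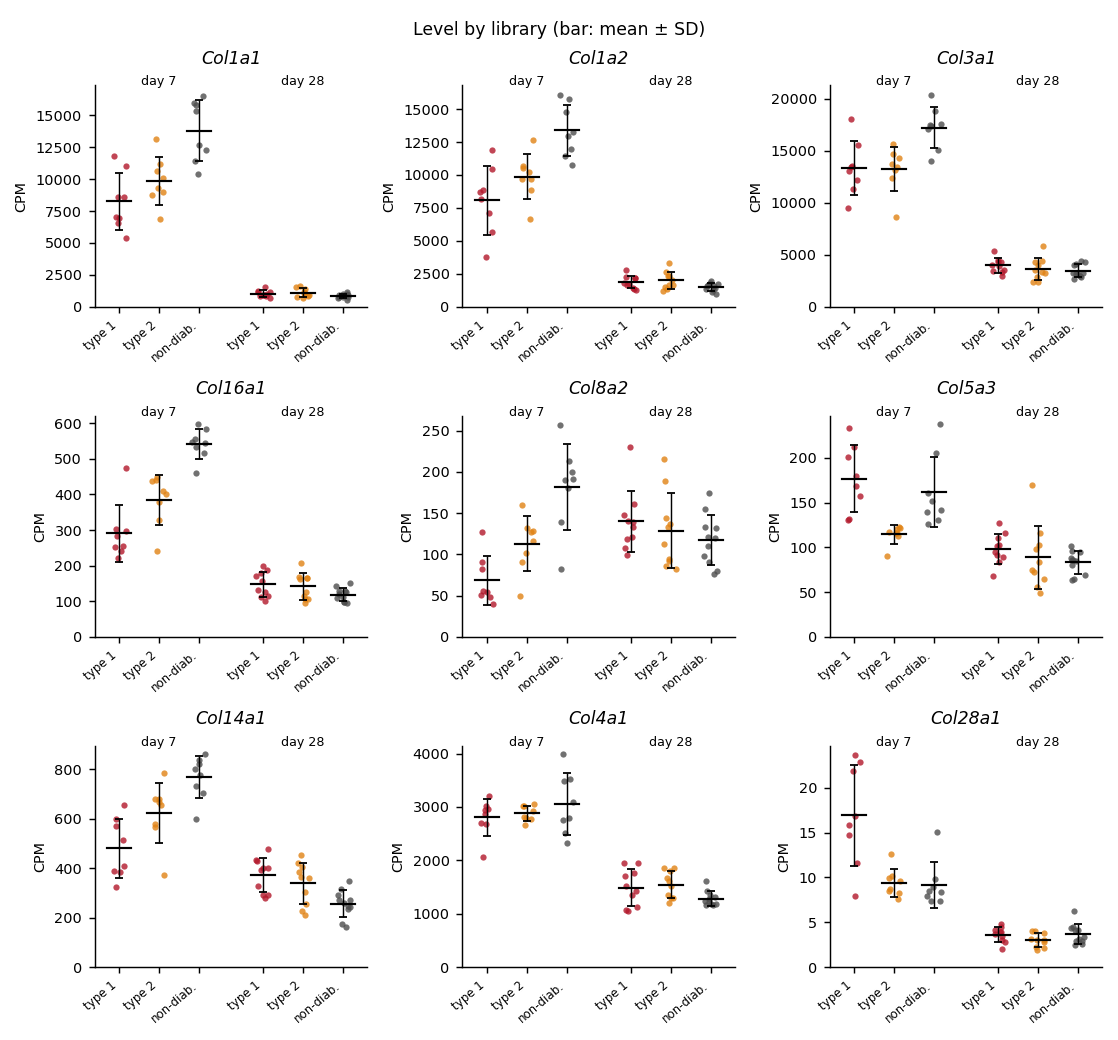
CPM of 9 collagen chains in each library, by day and group (points), with the mean and SD (bars); each axis starts at 0. At day 7 Col16a1 has a median of 268.9 CPM in type 1, 404.6 in type 2 and 546 in non-diabetic tissue, Col5a3 is lowest in type 2, and Col28a1 is highest in type 1.

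All 8 tested FACIT chains fell in type 1 tissue at day 7. Col16a1, a minor chain attached to fibres, had between 221.4 and 474.3 CPM with a median of 268.9 in type 1, between 241.3 and 448.2 with a median of 404.6 in type 2, and between 460.1 and 596.4 with a median of 546 in non-diabetic libraries. Every type 2 library lay below every non-diabetic one, and 1 of the 8 type 1 libraries, replicate 3, reached into the non-diabetic range. Its log2 change was −0.90 (SE 0.131, adjusted p = 0.000146) in type 1 and −0.49 (SE 0.13, adjusted p = 0.0221) in type 2, where it lost the call without type 2 replicate 3 (0.0549). Col14a1 and Col12a1 bind the surface of collagen I fibres. Col14a1 had between 323 and 656.3 CPM with a median of 460.5 in type 1, between 371.9 and 784.9 with a median of 662.9 in type 2, and between 600.9 and 860.1 with a median of 789.4 in non-diabetic libraries. It fell in type 1 (−0.68, SE 0.14, adjusted p = 0.00162), with −0.30 in type 2 (SE 0.139, adjusted p = 0.199). Col12a1 fell less in type 1 (−0.31, SE 0.104, adjusted p = 0.0306), a call lost on leaving out any of 7 of the 16 libraries.

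Collagen IX, the FACIT partner of collagen II in cartilage, was scarce, and all 3 of its chains fell in type 1 tissue. Col9a1 had between 0.1046 and 0.9567 CPM with a median of 0.187 in type 1, between 0.1304 and 1.102 with a median of 0.514 in type 2, and between 0.9758 and 2.119 with a median of 1.499 in non-diabetic libraries. Every type 1 library lay below every non-diabetic one, as for 0.743% of all genes, and the log2 change was −2.40 (SE 0.414, adjusted p = 0.000403). Col9a1 rests on few reads in type 1 libraries, so the size of this fall is uncertain. In type 2 it fell by 1.40 on the log2 scale (SE 0.39, adjusted p = 0.0297), a call that 5 of the 16 omissions ended. Col9a2 fell in type 1 (−1.10, SE 0.224, adjusted p = 0.00147) and Col9a3 too (−0.77, SE 0.218, adjusted p = 0.0133). Col20a1 had between 1.58 and 2.593 CPM in type 1 and between 2.983 and 5.274 in non-diabetic libraries, again without overlap, and fell in type 1 (−0.78, SE 0.154, adjusted p = 0.00118). Col22a1, known from muscle-tendon junctions, fell in type 1 (−1.57, SE 0.428, adjusted p = 0.0105) and in type 2 (−1.39, SE 0.424, adjusted p = 0.046), where 10 of 16 omissions ended the call (up to 0.121). With the cardiomyocyte markers as a covariate, the type 1 change of Col22a1 was −0.72 with an adjusted p of 0.164.

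All 3 network chains fell in type 1 tissue at day 7, Col8a2 by the most. Col8a2, a chain of the sheet-forming collagen VIII of vessel walls, had between 39.68 and 127.4 CPM with a median of 54.56 in type 1, between 49.74 and 159.4 with a median of 121.6 in type 2, and between 82.87 and 257.4 with a median of 190.6 in non-diabetic libraries. The log2 change was −1.41 (SE 0.239, adjusted p = 0.00037) in type 1 and −0.68 (SE 0.236, adjusted p = 0.0768) in type 2. DESeq2 called the type 2 change of Col8a2 (−0.68, adjusted p = 0.0339). Its partner Col8a1, the more abundant of the 2, fell in type 1 (−0.46, SE 0.124, adjusted p = 0.00974), with −0.32 in type 2 (SE 0.124, adjusted p = 0.115). Col10a1, the collagen of hypertrophic cartilage, had a median of 1.181 CPM in type 1, 1.213 in type 2 and 3.018 in non-diabetic libraries. It fell in type 1 (−1.04, SE 0.307, adjusted p = 0.0167) and in type 2 (−1.19, SE 0.308, adjusted p = 0.02); its exons overlap those of Nt5dc1 on the other strand, so its counts are uncertain.

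The major basement membrane chains did not pass in either type at day 7. Col4a1 had between 2060 and 3213 CPM with a median of 2903 in type 1, between 2661 and 3056 with a median of 2869 in type 2, and between 2316 and 4000 with a median of 2938 in non-diabetic libraries. The groups overlapped almost entirely, and the log2 change was −0.12 (95% interval −0.32 to 0.07) in type 1 and −0.09 (−0.28 to 0.11) in type 2. Col4a2, its partner in the ubiquitous collagen IV, had −0.16 (−0.38 to 0.06) in type 1 and −0.19 (−0.41 to 0.03) in type 2. Col15a1, which links basement membranes to fibres, had −0.05 (−0.30 to 0.20) and −0.18 (−0.43 to 0.07), and Col18a1, the precursor of endostatin, had 0.04 (−0.15 to 0.22) and 0.00 (−0.18 to 0.19). The chains that fell in type 1 belong to the restricted collagen IV forms: Col4a4 at −0.63 (SE 0.175, adjusted p = 0.0121), Col4a5 at −0.42 (SE 0.117, adjusted p = 0.0124) and Col4a6 at −0.55 (SE 0.201, adjusted p = 0.0497). Col4a6 lost its call on leaving out any of 12 of the 16 libraries. With the cardiomyocyte markers as a covariate, the adjusted p was 0.0974 for Col4a4 and 0.0751 for Col4a5.

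Collagen VI forms beaded filaments around cells, and its common chains split at day 7. Col6a1 had between 585.2 and 934.3 CPM with a median of 637.1 in type 1, between 517 and 828.2 with a median of 805.2 in type 2, and between 752.1 and 1276 with a median of 1023 in non-diabetic libraries. It fell in type 1 (−0.59, SE 0.12, adjusted p = 0.00148) and in type 2 (−0.42, SE 0.12, adjusted p = 0.0324), and Col6a2 fell with it (−0.58, SE 0.13, adjusted p = 0.00313 in type 1; −0.46, SE 0.13, adjusted p = 0.0309 in type 2). In type 2 both calls were lost in 6 of 16 omissions, with an adjusted p of up to 0.0794 for Col6a1 and 0.0774 for Col6a2. Col6a3, the long chain that completes the heterotrimer, had between 377.8 and 698.3 CPM in type 1, between 387.4 and 625.7 in type 2, and between 459.7 and 666.5 in non-diabetic libraries, and its log2 changes of −0.12 (SE 0.108) and −0.20 (SE 0.108) did not pass. Col6a6 fell in type 1 (−0.94, SE 0.337, adjusted p = 0.0464), a call that 9 of 16 omissions ended. Col6a5 had 54.66 CPM in type 1 replicate 4, against a group median of 1.883, and its log2 change of 1.29 did not pass (adjusted p = 0.217).

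Among the remaining chains, Col7a1, the anchoring fibril collagen of epithelia, fell in type 1 (−0.72, SE 0.14, adjusted p = 0.00111) and type 2 (−0.62, SE 0.14, adjusted p = 0.00828), with medians of 29.59 CPM in type 1, 31.83 in type 2 and 51.62 in non-diabetic tissue. Col13a1, a transmembrane collagen, fell in type 1 (−1.04, SE 0.282) and type 2 (−1.17, SE 0.283). Col26a1 fell in type 2 (−1.01, SE 0.256, adjusted p = 0.0172). Only 2 chains rose, both in type 1. Col28a1, a collagen found around peripheral nerve and glia, had between 7.94 and 23.62 CPM with a median of 16.37 in type 1, between 7.584 and 12.65 with a median of 9.176 in type 2, and between 7.377 and 15.12 with a median of 8.412 in non-diabetic libraries. It rose in type 1 by 0.88 (SE 0.184, adjusted p = 0.00169), with 7 of 8 libraries above the non-diabetic mean. Of 7 tested Schwann cell markers, Mbp rose in type 1 and none fell, but the median log2 change over the 7 was −0.22. Pmp2 was at 0 in every day 7 library. The marker sums were 33.58 to 42.61 CPM in type 1 and 28.45 to 42.17 CPM in non-diabetic tissue. The part of these markers in the rise of Col28a1 was not tested. Col17a1, a hemidesmosome protein, was scarce and rose in type 1 (0.78, SE 0.286, adjusted p = 0.0494), with a median of 0.370 CPM in type 1 and 0.194 CPM in non-diabetic tissue. It lost the call in 10 of 16 omissions and without the low-count filter (adjusted p = 0.138). None of the 5 tested epithelial and keratinocyte markers passed in type 1. In the main edgeR fits, Col4a3, a restricted basement membrane chain, and the scarcer Col6a4 passed in no comparison at either day. The transmembrane chains Col23a1 and Col25a1 did not pass there either. Day 7 medians of Col4a3, Col6a4, Col23a1 and Col25a1 were 3.457, 0.2117, 6.458 and 0.1764 CPM in type 1. In non-diabetic tissue they were 4.399, 0.3058, 7.679 and 0.1761 CPM, in that order. At day 28, DESeq2 called Col23a1 in type 1 against non-diabetic tissue (0.69, adjusted p = 0.0451). It also called Col25a1 between the types (1.67, adjusted p = 0.0287). With the cardiomyocyte markers as a covariate, the type 1 change of Col23a1 differed between the days by 1.15 (edgeR, adjusted p = 0.00703).

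Type 1 and type 2 tissue were also compared with each other at day 7. Of the 43 chains, 2 were higher and 1 was lower in type 1, beside 1.51% and 1.19% of all genes. Col5a3 was higher in type 1 by 0.62 (SE 0.13, adjusted p = 0.0124), with all 8 type 1 libraries above all 8 type 2 libraries, as for 0.308% of all genes. Col28a1 was higher in type 1 by 0.85 (SE 0.183, adjusted p = 0.0153, 7 of 8 libraries). Col2a1 was lower in type 1 by 1.09 on the log2 scale, written as a change of −1.09 (SE 0.269, adjusted p = 0.0294), a call that 6 of 16 omissions ended. None of the 8 tested FACIT chains passed, and all 8 had a negative log2 change (median −0.41, beside 0 over all genes). An unadjusted p under 0.05 was found for 5 of them, but the share of all genes under that value was not taken. Col16a1 stood at −0.40 (SE 0.13, adjusted p = 0.0874). Collagen I did not pass either, with −0.26 (95% interval −0.56 to 0.04) for Col1a1 and −0.29 (−0.62 to 0.04) for Col1a2. DESeq2 called 7 chains in this comparison, Col16a1 among them (adjusted p = 0.0427). Of all genes, DESeq2 called 1024 and edgeR 492. The edgeR count of chains was also 7 without type 1 replicate 3 and 5 without type 2 replicate 1.

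Ratios of 2 chains within a library do not depend on the scaling of the library, and 9 ratios were compared in 6 pairs of groups, 54 tests in all (permutation over libraries, two-sided, exact where a group had fewer than 10 libraries, adjusted over the 54). The balance of collagen III to collagen I shifted in type 1 tissue. At day 7 the counts of Col3a1 over Col1a1 were 1.65 ± 0.172 in type 1, 1.35 ± 0.157 in type 2 and 1.28 ± 0.246 in non-diabetic tissue (SD, n = 8 each). The ratio was higher in type 1 than in non-diabetic tissue (8 of 8 libraries, exact permutation adjusted p = 0.015) and than in type 2 tissue (8 of 8, exact permutation adjusted p = 0.015). At day 28 it was lowest in type 2, at 3.95 ± 0.379 in type 1, 3.34 ± 0.376 in type 2 and 4.16 ± 0.713 in non-diabetic tissue. There type 2 was lower than non-diabetic tissue (10 of 10 libraries, permutation adjusted p = 0.0103), and type 1 was higher than type 2 (10 of 10, permutation adjusted p = 0.0127).

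Within collagens V, VI and VIII the minor and major chains also shifted against each other at day 7. Col5a3 over Col5a1 was 0.0941 ± 0.0159 in type 1, 0.0635 ± 0.012 in type 2 and 0.0619 ± 0.0101 in non-diabetic tissue, higher in type 1 than in either (exact permutation adjusted p = 0.0121 each). Col6a3 over Col6a1 was 0.83 ± 0.15 in type 1, 0.702 ± 0.0921 in type 2 and 0.602 ± 0.0644 in non-diabetic tissue, and the type 1 ratio was above the non-diabetic one (exact permutation adjusted p = 0.0121). Col8a2 over Col8a1 was 0.0546 ± 0.0171 in type 1, 0.0811 ± 0.0162 in type 2 and 0.107 ± 0.0329 in non-diabetic tissue, lower in type 1 than in non-diabetic tissue (exact permutation adjusted p = 0.0121). Col4a1 over Col1a1, a basement membrane chain against a fibrillar one, was 0.364 ± 0.108 in type 1, 0.302 ± 0.0683 in type 2 and 0.223 ± 0.0286 in non-diabetic tissue, higher in both diabetic groups (exact permutation adjusted p = 0.015 each). At day 28, Col6a3 over Col6a1 was 0.367 ± 0.0635 in type 1, 0.32 ± 0.04 in type 2 and 0.405 ± 0.0587 in non-diabetic tissue, so that type 2 was below non-diabetic tissue (permutation adjusted p = 0.0103).

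Among pairs of chains from 1 collagen type, Col6a1 over Col6a2, Col1a1 over Col1a2 and Col5a1 over Col5a2 passed in no comparison at either day. At day 7 Col5a1 over Col5a2 was 0.663 ± 0.109 in type 1, 0.7 ± 0.0421 in type 2 and 0.768 ± 0.11 in non-diabetic tissue. Col6a1 over Col6a2 was 1.13 ± 0.028 in type 1, 1.17 ± 0.0307 in type 2 and 1.15 ± 0.0627 in non-diabetic tissue at day 7. Col1a1 over Col1a2 was 1.08 ± 0.328 in type 1, 0.999 ± 0.0531 in type 2 and 1.03 ± 0.0743 in non-diabetic tissue, where the wide spread in type 1 came from 1 library, at 1.87. At day 28 Col1a1 over Col1a2 was 0.551 ± 0.0283 in type 1, 0.551 ± 0.0402 in type 2 and 0.574 ± 0.0389 in non-diabetic tissue. Col4a1 over Col4a2 was 1.32 ± 0.0376 in type 1, 1.42 ± 0.0608 in type 2 and 1.33 ± 0.0502 in non-diabetic tissue at day 28. It was higher in type 2 than in non-diabetic tissue (permutation adjusted p = 0.0121, 9 of 10 libraries) and lower in type 1 than in type 2 (permutation adjusted p = 0.0103, 10 of 10). At day 7 it was also lower in type 1, at 1.46 ± 0.0398, than in type 2, at 1.53 ± 0.0421 (exact permutation adjusted p = 0.0121, 8 of 8), but these 2 genes overlap at their starts on opposite strands and their counts may be mixed.

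**Figure D4:**
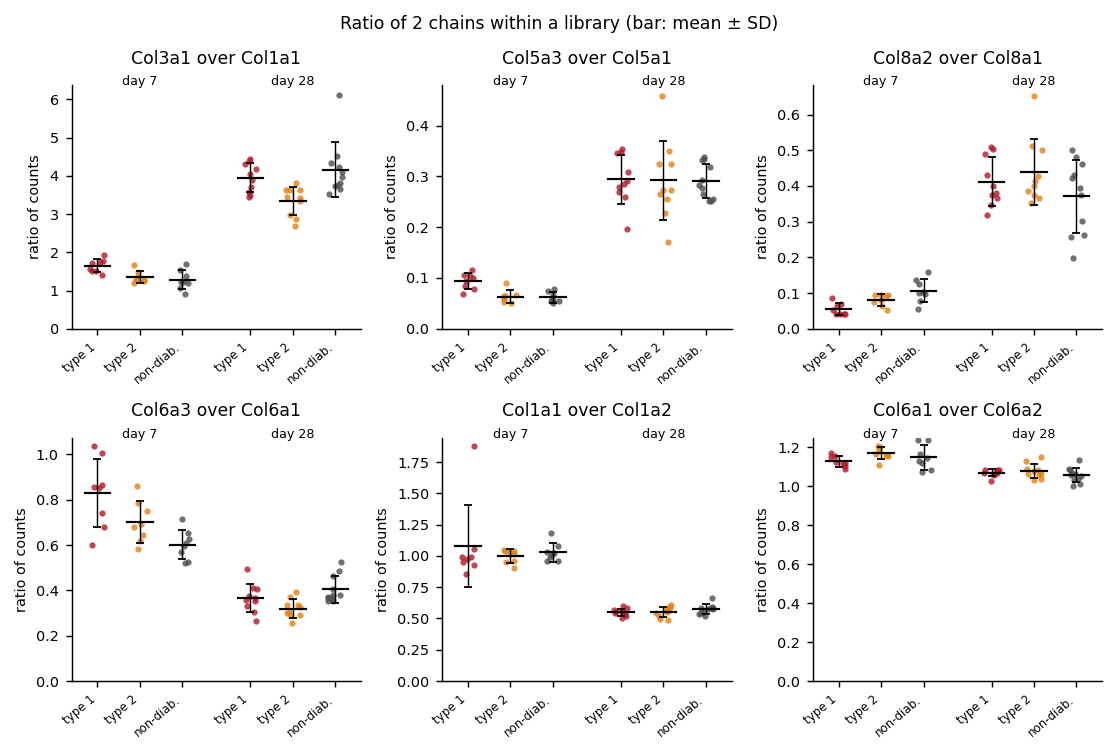
Ratio of the counts of 2 collagen chains within each library, by day and group (points), with the mean and SD; each axis starts at 0. At day 7 Col3a1 over Col1a1 averages 1.65 in type 1, 1.35 in type 2 and 1.28 in non-diabetic tissue, while Col6a1 over Col6a2 lies between 1.13 and 1.17 in all 3 groups.

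At day 28 the few collagen chains that passed were higher in diabetic tissue. In type 1 tissue 5 of 43 rose and none fell, beside 2.6% of all genes that rose and 1.41% that fell, and the median log2 change over the chains was 0.26. In type 2 tissue 2 rose and none fell, beside 7.21% and 3.5% of all genes, with a median of 0.19. Col14a1 had between 277.5 and 476.2 CPM with a median of 395.7 in type 1, between 208.7 and 451.8 with a median of 362.2 in type 2, and between 160.3 and 347.8 with a median of 259.8 in non-diabetic libraries. It rose in type 1 by 0.54 (SE 0.139, adjusted p = 0.0229, 10 of 10 libraries), with 0.40 in type 2 (SE 0.139, adjusted p = 0.0592). This was the one type 1 call at day 28 that held on leaving out each library in turn. Col9a2, Col7a1, Col27a1 and Col11a2 also rose in type 1, by 0.68, 0.64, 0.47 and 0.32, and lost the call in 11, 6, 11 and 15 of the 21 omissions. The count in type 1 was 1 without non-diabetic replicate 4, 6 or 11. The libraries whose omission brought it to 2 or 3 were non-diabetic replicates 1, 5, 7 and 10 and type 1 replicates 3, 5, 8 and 9.

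In type 2 tissue at day 28, Col18a1 had between 71.43 and 161.9 CPM with a median of 95.86, against between 49.38 and 103.9 with a median of 73.92 in non-diabetic libraries. It rose by 0.51 (SE 0.15, adjusted p = 0.0247, 10 of 10 libraries). Without type 2 replicate 4, the library with the high B cell sum, the change was 0.41 with an adjusted p of 0.064. With the cardiomyocyte markers as a covariate it was 0.29 (0.0688). In type 1 tissue Col18a1 did not pass in the main fit, but with that covariate it did (0.3, adjusted p = 0.0486). Its type 1 mean per kilobase lay between those of non-diabetic (15.06 ± 3.434 CPM) and type 2 tissue (21.46 ± 5.853 CPM), nearer the latter. In type 2 tissue Col24a1 passed at 1.88 (SE 0.614, adjusted p = 0.0449) through 1 library. Type 2 replicate 10 held 26.59 CPM against a group median of 1.002, and without it the change was 0.20 (adjusted p = 0.808). Between the types, Col13a1 and Col27a1 were higher in type 1 and none was lower, beside 1.19% of all genes higher and 2.03% lower. Col13a1 had between 2.433 and 5.176 CPM with a median of 3.516 in type 1 and between 1.434 and 3.029 with a median of 2.247 in type 2, a change of 0.69 (SE 0.144, adjusted p = 0.00407, 10 of 10 libraries). Col27a1 differed by 0.47 (SE 0.132, adjusted p = 0.0422), a call that 12 of 20 omissions ended. Leaving out single libraries gave 1 to 5 calls in type 2 and 1 to 3 between the types. In edgeR, collagens I and III passed in no comparison at day 28. Col1a1 stood at 0.28 (95% interval −0.02 to 0.58) in type 1 and 0.37 (0.08 to 0.67) in type 2. Col3a1 stood at 0.20 (−0.06 to 0.46) in type 1 and 0.07 (−0.20 to 0.33) in type 2. DESeq2 called Col1a2 in type 2 at that day (0.44, adjusted p = 0.0414).

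The diabetic effect at day 28 was tested against that at day 7, in a fit of all 6 groups, as the difference between the 2 log2 changes. For type 1, 22 of 43 chains had a higher effect at day 28 and 2 a lower one, beside 6.98% and 5.5% of all genes. The difference was 1.01 for Col1a1 (SE 0.219, adjusted p = 0.00126), 1.06 for Col1a2 (SE 0.236, adjusted p = 0.00169) and 1.2 for Col16a1 (SE 0.194, adjusted p = 3.45e-05). It was 1.2 for Col14a1 (SE 0.204), 1.65 for Col8a2 (SE 0.294) and 2.77 for Col2a1 (SE 0.559). Col28a1 moved the other way, at −0.93 (SE 0.25, adjusted p = 0.0092). Col6a5 did too, at −2.52, but without day 7 type 1 replicate 4 it was −1.01 with an adjusted p of 0.418. For type 2, 7 chains had a higher effect at day 28 and none a lower one, beside 1.08% and 0.426% of all genes. They were Col1a1 (0.83, SE 0.219, adjusted p = 0.0363), Col1a2 (0.85), Col6a1 (0.62), Col6a2 (0.63), Col7a1 (0.98), Col11a2 (0.66) and Col16a1 (0.72). Only Col7a1 kept its type 2 call in all 37 omissions. Day is confounded with the sequencing project, so a difference between projects in how an effect is measured cannot be told apart from one between days.

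**Figure D5:**
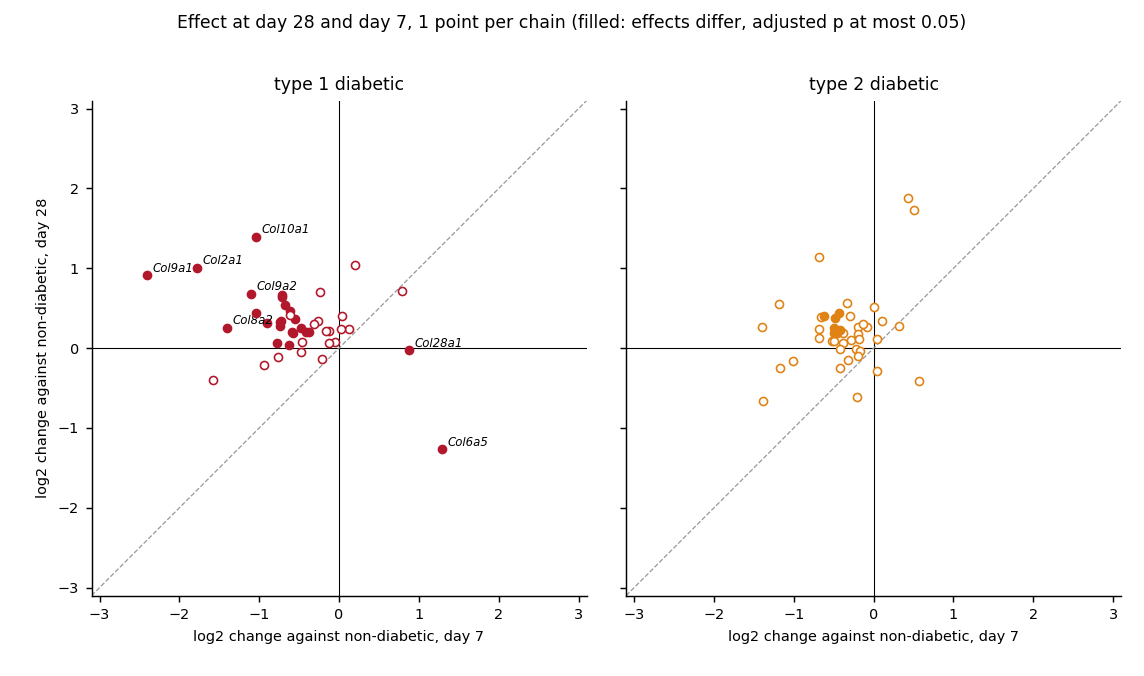
Log2 change against non-diabetic tissue at day 28 (vertical) and day 7 (horizontal), 1 point per chain, for type 1 (left) and type 2 (right). Filled points have effects that differ between the days (adjusted p at most 0.05), 24 for type 1 and 7 for type 2, and the dashed line marks equal effects; in type 1, 22 filled points lie above it and Col28a1 and Col6a5 lie below.

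Genes that handle collagen and markers of cell types were given as lists. Their counts stand beside the 11.4% of all genes that fell and the 11.1% that rose in type 1 at day 7, and the 3.5% and 3.85% in type 2. Of 16 proteins that bind or organise fibres, 13 fell in type 1 at day 7 and none rose (median log2 change −0.71), and 6 fell in type 2 (median −0.54). Comp, a cartilage protein that bridges collagen fibres, fell by 1.88 on the log2 scale in type 1 (SE 0.27, adjusted p = 0.000133) and by 0.99 in type 2 (SE 0.264, adjusted p = 0.0236). Prelp fell by 1.31 and Fmod, which controls fibre width, by 1.52 in type 1. The enzymes and chaperones that fold and modify the chains moved less, with 5 of 22 lower in type 1 (median −0.14) and 1 in type 2. Among them P3h3, a prolyl hydroxylase family member, fell by 0.53 (SE 0.0819, adjusted p = 0.000176) in type 1 and by 0.33 (SE 0.0817, adjusted p = 0.0145) in type 2. Of 13 genes that trim and crosslink collagen, 3 fell and 3 rose in type 1: Adamts2, which removes the amino propeptide, fell by 0.55 and Loxl1, a crosslinking oxidase, by 0.58, while Tll1 rose by 0.83.

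Genes that break collagen down went both ways at day 7. Of 15, 4 fell and 5 rose in type 1, and 3 fell and 2 rose in type 2. Mmp8, the collagenase of neutrophils, rose by 1.45 in type 1 (SE 0.243, adjusted p = 0.000343) and 1.17 in type 2 (SE 0.242, adjusted p = 0.0042), while the gelatinase Mmp2 fell by 0.82 in type 1 (SE 0.14, adjusted p = 0.000393). Of 8 tested collagen receptors, 2 fell and 1 rose in type 1. Itga11, the fibroblast integrin for collagen I, fell by 1.03 in type 1 (SE 0.168, adjusted p = 0.000272) and 0.66 in type 2 (SE 0.167, adjusted p = 0.0167), and at day 28 it rose in type 1 by 0.57 (SE 0.149, adjusted p = 0.0264). Of 16 genes of TGF-beta signalling, the main inducer of collagen genes in fibroblasts, 3 fell and 2 rose in type 1 at day 7, and 2 fell in type 2. Tgfb3 fell by 0.98 in type 1 (SE 0.161) and by 0.60 in type 2 (SE 0.16), and the TGF-beta-induced matrix protein gene Tgfbi rose by 0.76 in type 1 (SE 0.166). At day 28, 5 of the 16 rose in type 1 and 3 in type 2, beside 2.6% and 7.21% of all genes.

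Of the cell type markers, those of fibroblasts and related cells included many that fell with the collagen chains at day 7. Of 13 fibroblast markers, 7 fell in type 1 and 5 in type 2 and none rose, with sums of 2732 to 4283 CPM in type 1, 2403 to 3731 in type 2 and 3753 to 5325 in non-diabetic tissue. Pdgfra, a defining fibroblast receptor, stood at 0.04 in type 1 (adjusted p = 0.861). Of 12 myofibroblast markers, 7 fell in type 1 and 2 in type 2, and Acta2, the defining actin, stood at −0.15 in type 1 (adjusted p = 0.582). Their sums were 12300 to 25110 CPM in type 1, 14330 to 21930 in type 2 and 19440 to 29050 in non-diabetic tissue. Of 10 tested markers of late scar fibroblasts, 9 fell in type 1 and 4 in type 2, with sums of 1960 to 7138 CPM in type 1, 4279 to 6124 in type 2 and 4513 to 9311 in non-diabetic tissue. The lists share genes, so their counts are not independent. Comp, Prelp and Fmod, named above among the fibre proteins, are also late scar markers, and Thbs4 is on the myofibroblast and late scar lists. Of 6 tested chondrocyte markers, 4 fell in type 1, namely Acan, Sox9, Matn3 and the member Col2a1, and 1 fell in type 2. Snorc of that list was at 0 in every day 7 library, and the chondrocyte sums were 42.18 to 113.5 CPM in type 1, 57.24 to 137.9 in type 2 and 94.55 to 227.8 in non-diabetic tissue. Of 11 mural cell markers, 4 fell in type 1 and 2 in type 2, with sums of 2404 to 7248 CPM in type 1, 3635 to 4933 in type 2 and 4171 to 6273 in non-diabetic tissue. Of 12 endothelial markers 1 fell in type 1, and 1 fell and 1 rose in type 2, while none of 9 mesothelial markers passed in either type.

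Markers of macrophages and neutrophils were higher where they passed. Of 12 macrophage markers, 7 rose in type 1 and 5 in type 2, with sums of 5414 to 6973 CPM in type 1, 5507 to 6880 in type 2 and 4009 to 5947 in non-diabetic tissue. Of 6 tested neutrophil markers, 6 rose in type 1 and 2 in type 2, with sums of 65.73 to 502.5 CPM in type 1, 63.15 to 121.8 in type 2 and 31.58 to 95.43 in non-diabetic tissue. Mmp8, named above among the genes that break collagen down, is also on the neutrophil list. None of 7 B cell markers passed in either type, and of 7 tested adipocyte markers 1 rose in type 1. Of 20 cardiomyocyte markers, 2 fell in type 1, near the 11.4% of all genes that fell, and none passed in type 2. Their median log2 change was nonetheless −0.77 in type 1 and −0.23 in type 2, with a wide spread between libraries. The mean log2 CPM was 8.19 ± 1.29 in type 1, 8.97 ± 0.78 in type 2 and 9.27 ± 0.57 in non-diabetic tissue (SD). Sums were 3043 to 27800 CPM in type 1, 8330 to 28900 in type 2 and 11360 to 40870 in non-diabetic tissue. With these markers as a covariate, 22 chains fell and 1 rose in type 1. Of all genes, 1677 fell and 1527 rose in that fit. Col1a1, Col16a1, Col14a1 and Col8a2 kept their calls and Col5a2 gained one (−0.36, adjusted p = 0.0246). Besides Col22a1, Col4a4 and Col4a5, those that lost the type 1 call were Col9a3 (0.0791), Col10a1 (0.0931), Col6a6 (0.245) and Col17a1 (0.12). In type 2 with the same covariate, Col1a1 (−0.55, adjusted p = 0.00584), Col1a2, Col3a1, Col11a1 and Col9a2 passed, which they did not without it. The part of the fibroblast, chondrocyte and leukocyte markers in the collagen changes was not tested. At day 28, 2.6% of all genes rose and 1.41% fell in type 1, and 7.21% rose and 3.5% fell in type 2. Beside these shares, 3 of 12 myofibroblast markers rose in type 1 and 2 in type 2. Of the fibroblast markers none passed in type 1 at day 28, while 3 fell and 1 rose in type 2. Of 12 endothelial markers 4 rose in type 2 at day 28 and none passed in type 1, beside the rise of Col18a1 in type 2; their part in that result was not tested either.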

How the data were processed

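RNA of infarcted left ventricle was sequenced from TruSeq stranded mRNA libraries, per the labels' protocols. For each day the authors deposited raw counts per gene; mm39 and DESeq2 are named per the submitters' processing notes. No aligner, counter, strand setting or annotation is stated in the sources used here, so counts of overlapping genes are uncertain (among them Col4a1 with Col4a2, Col10a1, Col22a1 and Col9a3). Of the counts between 1 and 49, 76.4% at day 7 and 75.2% at day 28 were even numbers, and the cause was not tested. Columns were matched to samples by library name. No 2 libraries were repeats of each other: the lowest chi-square per gene between 2 libraries of a group was 17.6 at day 7 and 25.0 at day 28.

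Genes passed edgeR's filter at a minimum count of 10 and a total of 15. Each day's 3 groups shared 1 fit in edgeR 4.0.16 (R 4.3.3, TMM scaling, quasi-likelihood test), and the difference of effects between days was fitted on all 6 groups. P-values were adjusted by Benjamini-Hochberg over all tested genes and called at 0.05 or less. The standard error is the size of the log2 change divided by the root of the F statistic, and 95% intervals are 1.96 standard errors either side. The fits were tested on simulated data. Gene symbols, lengths and overlaps came from a GENCODE annotation of GRCm38.

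The members and gene lists were chosen with earlier results of these data known. Named by rule were 19 chains and, per comparison within a day, up to 5 called chains in each direction whose mean log2 CPM was 0 or more; other chains are named to account for every member. Of each other pathway list up to 3 called genes with the smallest p were named, and of marker lists the defining genes. Of the genes this rule names, 1 is not reported here. Alternatives were DESeq2 1.42.0, RLE scaling, no filter, the replicate number as a block, cardiomyocyte markers as a covariate, libraries added together by the first number of their name, only the groups compared, and each library left out. Leaving libraries out of the ratios was added after the data were seen.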

Additional observations from a re-analysis of the deposited data

Results flagged for a closer look

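Single libraries stood away from the rest of their group for 17 of the 131 combinations of a chain and a group of 4 to 10 libraries that were checked, 13%. Chance gives about 1 in 20 for a single check. The checks share libraries and are not independent, so 1 library can be flagged for several chains. The day 28 non-diabetic group, with 11 libraries, was not checked. All values here are log2 CPM. At day 7, type 1 replicate 3 was highest of its group for Col16a1 (8.89), Col6a1 (9.87) and Col6a2 (9.71). Type 1 replicate 4, the library with the high Adipoq level, was lowest for Col4a1 (11.01) and Col15a1 (8.70). Type 2 replicate 1 was lowest of its group for 5 chains of fibres and their surface or of vessel walls, Col3a1 (13.08), Col5a2 (10.91), Col12a1 (8.13), Col14a1 (8.54) and Col8a1 (9.86). Type 2 replicate 2 was lowest for Col5a3 (6.5), and type 2 replicate 7 was highest for Col7a1 (5.56). Non-diabetic replicate 5 was highest for Col5a1 (11.98) and Col28a1 (3.92) and lowest for Col10a1 (−0.57). At day 28, type 2 replicate 2 was highest for Col11a2 (2.76) and type 2 replicate 10 for Col6a3 (8.35).

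The effect of type 1 diabetes differed between day 28 and day 7 for 24 chains, by the difference of the 2 log2 changes in the fit of all 6 groups. Among fibrillar chains the difference was 2.77 for Col2a1, 1.36 for Col11a1, 1.07 for Col27a1, 1.06 for Col1a2, 1.06 for Col11a2, 1.01 for Col1a1, 0.72 for Col5a1 and 0.56 for Col3a1. Among FACIT chains it was 3.31 for Col9a1, 1.76 for Col9a2, 1.2 for Col14a1, 1.2 for Col16a1 and 0.84 for Col20a1. The network chains Col10a1 and Col8a2 differed by 2.41 and 1.65. The basement membrane chains Col4a6, Col4a4 and Col4a5 differed by 0.91, 0.65 and 0.60. Of the others, Col13a1 differed by 1.47, Col7a1 by 1.34, Col6a1 by 0.78, Col6a2 by 0.76, Col28a1 by −0.93 and Col6a5 by −2.52. On leaving out each of the 37 type 1 and non-diabetic libraries in turn, Col4a4 lost the call in 16 omissions, Col3a1 in 15, Col6a5 in 14, and the other 21 chains kept theirs in every omission. For type 2 the effect differed for 7 chains, by 0.98 for Col7a1, 0.85 for Col1a2, 0.83 for Col1a1, 0.72 for Col16a1, 0.66 for Col11a2, 0.63 for Col6a2 and 0.62 for Col6a1. The call was lost in 23 of 37 omissions of a type 2 or non-diabetic library for Col1a2, 17 for Col16a1, 13 for Col1a1, 11 for Col6a1, 10 for Col6a2 and 6 for Col11a2.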

How the results depend on the processing

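No chain changed direction under any alternative while called. No ratio did so on leaving out single libraries, the only alternative run for the ratios. RLE scaling left every count of called chains within 1.5 times of the one reported. Adding together libraries whose names start with the same number moved every count: 15 chains passed in type 1 against non-diabetic tissue at day 7 (14 lower, 1 higher), and 0 in type 2 against non-diabetic tissue and 0 between the types at that day. At day 28 the same summing gave 0 in type 1, 1 in type 2, a fall, and 0 between the types. It gave 9 for the difference of the type 1 effect between days and 0 for that of type 2. Of all genes, summing called 6 in type 1, 427 in type 2 and 125 between the types at day 28. At day 7 it called 0 of all genes between the types. For the effect between days it called 423 of all genes in type 1 and 0 in type 2. Fewer units enter these fits, and the labels do not say what the number means. Without the low-count filter, 7 chains passed in type 2 at day 7. At day 28, 2 passed in type 1, 1 in type 2 and 1 between the types, and the type 2 effect between days had 1. Of all genes, 823 passed without the filter in type 2 at day 7, against 1336 with it. At day 28 the numbers were 440 against 759 in type 1, 1531 against 2024 in type 2 and 403 against 607 between the types. The type 2 effect between days had 158 against 308. The cause was not tested. DESeq2 called 7 chains between the types at day 7, 5 lower and 2 higher in type 1. Of all genes, it called 1024 there, and edgeR called 492. For type 2 at day 28, 0 chains passed with the cardiomyocyte covariate and 1 when only the compared groups were fitted. Of all genes, 1985 and 1526 passed in those 2 fits, against 2024 in the fit reported.

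The replicate numbers gave no clear pairing of the libraries. Deviations of same-numbered libraries had median correlations of −0.03 to 0.15, against −0.01 to 0.01 for other pairs. At most 5 pairs of a comparison exceeded 0.1, and at most 3 libraries correlated best with their own number. The highest median, 0.15, was that of type 1 against non-diabetic tissue at day 7, where 5 of 8 pairs exceeded 0.1. No test was run on these correlations, so a weak pairing may remain. With the replicate block, the counts at day 28 were 1 in type 1 and 0 in type 2, and the type 2 effect between days had 1. Of all genes, 333 passed in type 1 and 1379 in type 2 at day 28 with the block, against 759 and 2024 without it. The type 2 effect had 191 against 308. The other counts of chains stayed within 1.5 times.

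Leaving out 1 library at a time gave 24 to 30 called chains in type 1 at day 7, 6 to 16 in type 2 and 2 to 7 between the types. At day 28 it gave 1 to 5 in type 1, 1 to 5 in type 2 and 1 to 3 between the types. The effect between days had 21 to 28 chains for type 1 and 1 to 9 for type 2. For type 2 at day 28, 1 chain passed without non-diabetic replicate 1, 2, 4, 6, 7, 9 or 11 or type 2 replicate 1, 4 or 10, and 4 or 5 without type 2 replicate 5, 6 or 8. Between the types at day 28, 1 passed without type 1 replicate 2, 3, 5, 7, 8 or 9 or type 2 replicate 1, 5, 6, 8, 9 or 10. For the type 2 effect, 1 to 4 passed without day 7 non-diabetic replicate 1, 2, 3, 4 or 5, day 7 type 2 replicate 1, 3, 5 or 6, day 28 non-diabetic replicate 2 or 4, or day 28 type 2 replicate 1, 3 or 10. Of the ratios, Col8a2 over Col8a1 between the types at day 7 had its call changed by 8 of 16 omissions, and 6 other comparisons of a ratio by 1 or 2. Chains below about 1 CPM, such as Col9a1 and Col17a1, rest on few reads in the shallower day 7 libraries.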
